A study of Bubalus bubalis with 12 samples.

Results

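The array of this study carried 13422 promoter probes among 177440 non-control probes, and these are the DNA regions described here. They were taken as every probe whose name bears neither the CpG island tag nor the coding tag of the array's design, which left 160708 CpG island probes and 3310 coding-sequence probes in the other classes. Sperm chromatin came from cryopreserved semen of 6 water buffalo bulls (Bubalus bubalis), 3 rated high-fertile (HF2, HF3 and HF5) and 3 rated subfertile (SF1, SF4 and SF5), with no treatment in either group. Chromatin was cross-linked, cut with micrococcal nuclease and precipitated with antibodies to dimethylated lysine 4 (H3K4me2) or trimethylated lysine 27 (H3K27me3) of histone H3. Each bull gave 1 two-colour array per mark, 12 arrays in all, on which ChIP DNA carried the Cy5 dye and that bull's own input DNA the Cy3 dye. The labels give no age, breed line or fertility score, so each fertility group is known here only by its name.

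In most cells H3K4me2 sits at promoters that are active or ready to be activated, while the Polycomb machinery places H3K27me3 at genes held silent. Mammalian sperm replace most histones by protamines, and the nucleosomes that remain have been reported at CpG-rich promoters of developmental and housekeeping genes, among other places. Promoters poor in CpG, the usual kind for tissue-restricted genes, are therefore of interest as the contrast to CpG islands in these cells.

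The name of the class did not match the position of all its probes. A 60-base genome position on the cattle build HGSC Btau_3.1 was given for 9879 of them (73.6%), and 3635 of these overlapped an interval of the CpG island class by at least 1 base, which is 27.1% of all 13422. The other 6244 (46.5%) lay outside every such interval, 5514 of the 9879 (55.8%) by more than 1000 bases and 2822 (28.6%) by more than 10000 bases. The remaining 3543 (26.4%) were listed only with one of 1018 windows of 5001 bases, 1979 of them (55.9%) on chromosome 8 and 707 on chromosome 7. These 3 groups are called promoter probes outside islands, over islands and of window design, and the class as a whole is called promoter probes. They carried 6096 gene symbols, of which 5067 match a symbol or a synonym of the buffalo RefSeq annotation.

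Each value is a log2 ratio of ChIP over input with the median of all non-control probes of its array set to 0, so it ranks DNA regions within an array and gives no absolute amount of a mark. In such bulk preparations the share of sperm that keep a nucleosome and the amount of mark per sperm cannot be told apart. For tests between bulls the probes of one gene symbol, class and chromosome were averaged where at least 2 were kept. This gave 2612 promoter regions among 8790 regions of all classes, with a median of 2 probes, and 1420 of them (54.4%) had exactly 2. The other 3506 of 6118 symbol and chromosome pairs had a single kept probe and were tested only as probes. Bulls are separate animals, each measured once per mark and each on a slide of its own within its fertility group. The spread between arrays of a group therefore holds animal, slide and preparation together.

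The oligos of the 4 promoter regions named first in the H3K4me2 comparison are printed 5′ to 3′, with every CG dinucleotide in capitals. They were picked by the fertility comparison and are not a typical sample of promoter probes. Letters and places were read from the deposited scanner files, with coordinates of the build HGSC Btau_3.1. RNF121 and CEP95 were higher and CHAF1A and TTC29 lower in high-fertile bulls.
RNF121 chr15:51054496-51054555: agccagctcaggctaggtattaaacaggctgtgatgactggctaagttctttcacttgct
RNF121 chr15:51054771-51054830: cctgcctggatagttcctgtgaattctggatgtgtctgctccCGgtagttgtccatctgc
CEP95 chr19:50224117-50224176: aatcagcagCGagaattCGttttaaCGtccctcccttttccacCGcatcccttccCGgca
CEP95 chr19:50228037-50228096: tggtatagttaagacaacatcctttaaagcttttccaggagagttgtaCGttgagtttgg
CHAF1A chr7:18298085-18298144: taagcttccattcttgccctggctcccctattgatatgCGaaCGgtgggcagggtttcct
CHAF1A chr7:18298180-18298239: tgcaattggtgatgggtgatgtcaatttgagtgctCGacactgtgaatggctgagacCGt
TTC29 chr17:12233261-12233320: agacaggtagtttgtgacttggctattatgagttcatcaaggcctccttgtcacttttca
TTC29 chr17:12235526-12235585: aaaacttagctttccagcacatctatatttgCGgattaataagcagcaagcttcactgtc
TTC29 chr17:12399986-12400045: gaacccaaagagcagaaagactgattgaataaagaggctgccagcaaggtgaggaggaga

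In the matching set for H3K27me3, ZYX and ITGB5 were higher and STK3 and EIF3D lower in high-fertile bulls, and for EIF3D the first 3 of its 4 oligos are shown.
ZYX chr4:110829878-110829937: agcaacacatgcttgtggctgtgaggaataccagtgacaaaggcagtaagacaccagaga
ZYX chr4:110829983-110830042: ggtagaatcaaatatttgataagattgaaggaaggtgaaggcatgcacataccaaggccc
ITGB5 chr1:70493613-70493672: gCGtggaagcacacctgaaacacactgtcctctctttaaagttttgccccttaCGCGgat
ITGB5 chr1:70493648-70493707: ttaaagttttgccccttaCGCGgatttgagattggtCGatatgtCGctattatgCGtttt
STK3 chr14:63650742-63650801: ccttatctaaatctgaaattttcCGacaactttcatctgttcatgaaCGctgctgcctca
STK3 chr14:63654307-63654366: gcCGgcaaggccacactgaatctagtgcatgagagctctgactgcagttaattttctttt
EIF3D chr5:80567882-80567941: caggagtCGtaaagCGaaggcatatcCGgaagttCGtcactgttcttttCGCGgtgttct
EIF3D chr5:80567922-80567981: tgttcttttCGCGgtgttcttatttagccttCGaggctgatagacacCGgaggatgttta
EIF3D chr5:80567967-80568026: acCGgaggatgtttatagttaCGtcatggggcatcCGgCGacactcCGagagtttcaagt

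The base composition of the promoter probes followed their position. The median G and C content was 41.7% outside islands (range 35% to 53.3%), 50% over islands and 55% in the window design (38.3% to 85%), against 51.7% in the CpG island class. A CG dinucleotide was missing from 3450 of the 6244 oligos outside islands (55.3%), from 4.54% of those over islands and from 4.27% of the island class. The TATA box core TATAAA, searched on both strands, occurred in 3.75% of oligos outside islands, 2.23% of those over islands and 2.15% of island oligos. The GC box GGGCGG, the core bound by SP family factors, occurred in 0.416% of oligos outside islands, 3.03% over islands, 6.63% of the window design and 2.4% of the island class. CCAAT occurred in 9.27%, 13.6%, 6.38% and 8.03% of the same groups. TGACGTCA, the full cyclic AMP response element, occurred in 0 of 6244 oligos outside islands and in 0.385% of those over islands. Each motif was searched as these exact letters, and a match in a 60-base window is a description of the oligo and not of bound protein.

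The 2 channels were bright enough at most promoter probes to give a ratio. Input was well above background at 94.4% to 99.84% of promoter probes per array and ChIP at 86.4% to 99.91%. Outside islands the lowest share in the ChIP channel was 77.6%, on the H3K4me2 array of HF5. Median signals per array ranged from 531 to 706 for input and from 429 to 674 for ChIP.

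Promoter probes as a class lay close to CpG island probes on every array. The median promoter probe minus the median island probe for H3K4me2 was -0.10, 0.18 and -0.24 in HF2, HF3 and HF5, a mean of -0.05 ± 0.21 (SD, n = 3). In subfertile bulls it was -0.02, -0.02 and -0.18 in SF1, SF4 and SF5, a mean of -0.07 ± 0.09 (SD, n = 3). For H3K27me3 the means were -0.01 ± 0.16 in high-fertile and 0.06 ± 0.11 in subfertile bulls (SD, n = 3 each). The ranges of the 2 fertility groups overlapped for both marks.

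The groups of promoter probes behaved differently from each other. Over islands the medians stayed within -0.12 and 0.02 of the island class on all 12 arrays. Outside islands they spread from -0.75 to 0.52. For H3K4me2 the values outside islands were -0.29 in HF2, 0.52 in HF3, -0.75 in HF5, -0.03, -0.06 and -0.73 in SF1, SF4 and SF5. HF3 alone was clearly above its island probes, HF5 and SF5 were far below theirs, and the group means were -0.18 ± 0.64 for high-fertile and -0.27 ± 0.39 for subfertile bulls (SD, n = 3 each). Without SF5 the subfertile mean was -0.05, and the high-fertile mean was -0.52 without HF3, -0.12 without HF2 and 0.11 without HF5. For H3K27me3 the same probes gave -0.23, 0.49 and -0.52 in HF2, HF3 and HF5 and -0.00, -0.06 and 0.19 in SF1, SF4 and SF5. SF5 was thus below its island probes for H3K4me2 and above them for H3K27me3, while the other bulls kept their side on both arrays. Window probes were above islands in HF5 (0.30 and 0.26) and SF5 (0.56 and 0.28) for H3K4me2 and H3K27me3 in turn, and between -0.04 and 0.06 in the other 4 bulls.

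**Figure D1:**
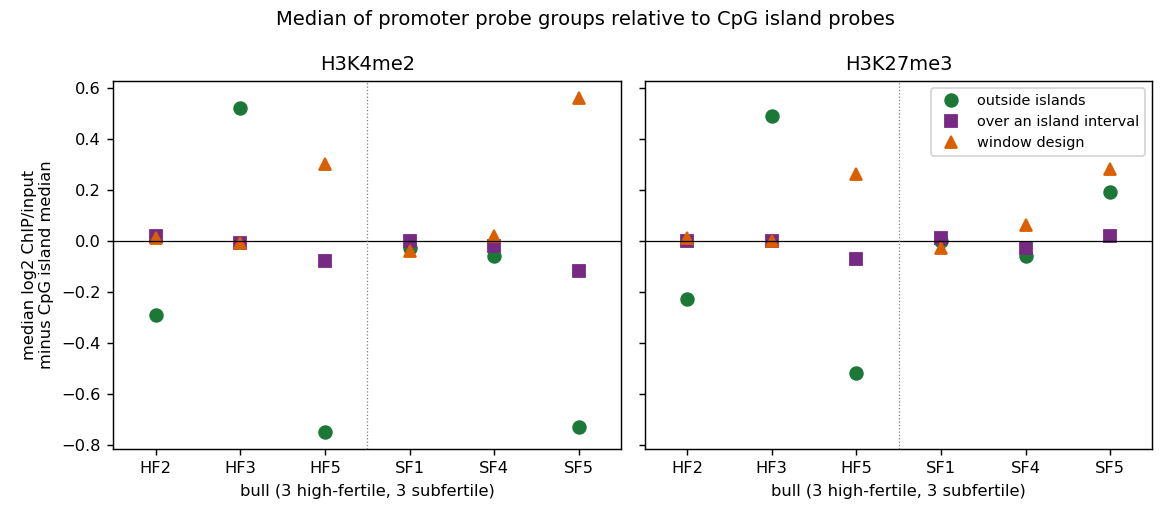
Median log2 ChIP over input of each promoter probe group minus the median of the CpG island probes of the same array (y axis), per bull (x axis) and mark (panels). Probes over islands lie near 0 in every bull, while those outside islands run from -0.75 in HF5 to 0.52 in HF3 for H3K4me2.

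These differences went with base composition, array by array. Promoter probes with less than 40% G and C (2034 probes) had H3K4me2 medians of -0.40 in HF2, 0.80 in HF3, -1.33 in HF5, -0.01, -0.17 and -1.23 in SF1, SF4 and SF5. Those with 70% or more (444 probes, all of window design) had 0.06, -0.28, 1.14, -0.05, -0.00 and 1.00 in the same order. The order of the bulls was thus turned round between the ends of the scale. For H3K27me3 the AT-rich end gave -0.22, 0.74, -0.99, 0.03, -0.15 and 0.15 and the GC-rich end 0.06, -0.33, 0.70, -0.01, 0.08 and 0.31. Spearman correlations of H3K4me2 with G and C content over 13403 promoter probes were 0.24, -0.20, 0.39, -0.02, 0.08 and 0.36, and for H3K27me3 0.14, -0.20, 0.30, -0.03, 0.08 and 0.01, given as descriptions of single arrays. When promoter probes outside islands were compared with island probes of the same G and C content, the H3K4me2 means were 0.02 ± 0.32 in high-fertile and -0.03 ± 0.08 in subfertile bulls (SD, n = 3 each). The matched means for H3K27me3 were 0.07 ± 0.29 and 0.13 ± 0.26. HF3 stood above its matched island probes by 0.38 for H3K4me2 and 0.40 for H3K27me3, and SF5 by 0.04 and 0.42.

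**Figure D2:**
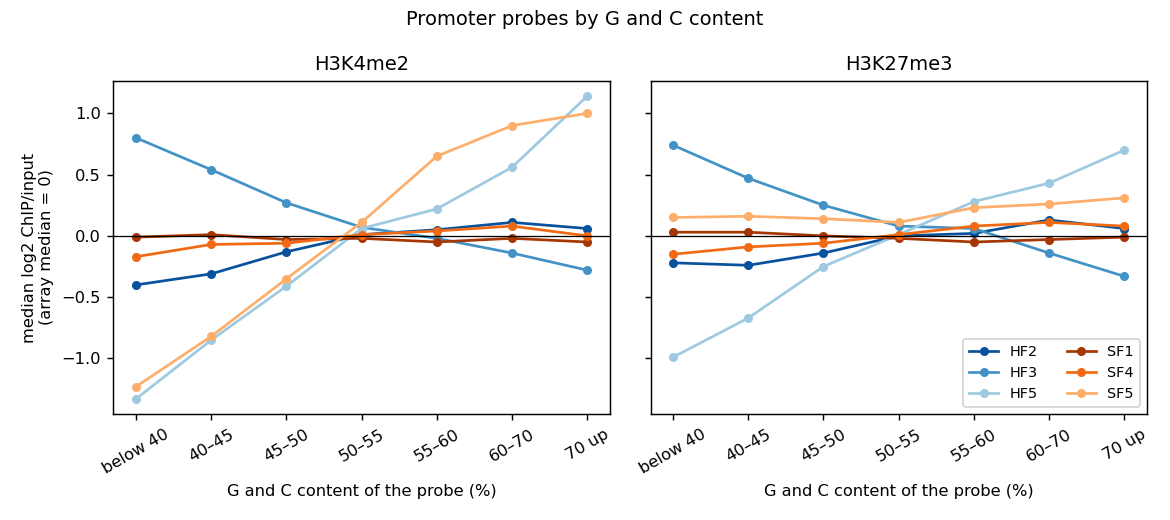
Median log2 ChIP over input of promoter probes (y axis, array median at 0) in bins of G and C content in percent (x axis), 1 line per bull and 1 panel per mark. The lines of HF5 and SF5 climb from -1.33 and -1.23 to 1.14 and 1.00 for H3K4me2, that of HF3 descends from 0.80 to -0.28, and SF1 and SF4 stay near 0.

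Both channels contributed to the position of the AT-rich promoters. The input signal of probes outside islands was below that of island probes in every bull, by a log2 difference of -0.57 in HF2, -1.32 in HF3, -0.84 in HF5, -0.88, -0.81 and -0.62 in SF1, SF4 and SF5 on the H3K4me2 arrays. The ChIP signal for H3K4me2 gave -0.87, -0.67, -1.83, -0.85, -0.88 and -1.39. Relative to its own island probes HF3 had the weakest input outside islands and the strongest ChIP, and HF5 the weakest ChIP. Against the mean input of all 6 bulls in place of the own input, the H3K4me2 median outside islands relative to islands became -0.03, 0.12, -0.91, -0.05, -0.08 and -0.45, so that HF3 moved from 0.52 to 0.12 while HF5 stayed the lowest. Amplification and labelling of the DNA of each bull were not replicated, and their part in these medians was not tested.

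Some promoter oligos allowed the precision of a spot to be measured. Of them 847 were printed again under another class name, 844 as CpG island probes and 3 as coding probes, at the same position in 838 cases. Both spots of an oligo on one array correlated at r from 0.975 to 0.987, and their median absolute difference was 0.09 log2 units over all arrays. The same oligos correlated between one bull and another at -0.14 to 0.25, and their median SD over the 6 bulls was 0.95 for H3K4me2 and 0.89 for H3K27me3. The spread between arrays of different bulls was therefore far wider than the spread between spots of one array.

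**Figure D3:**
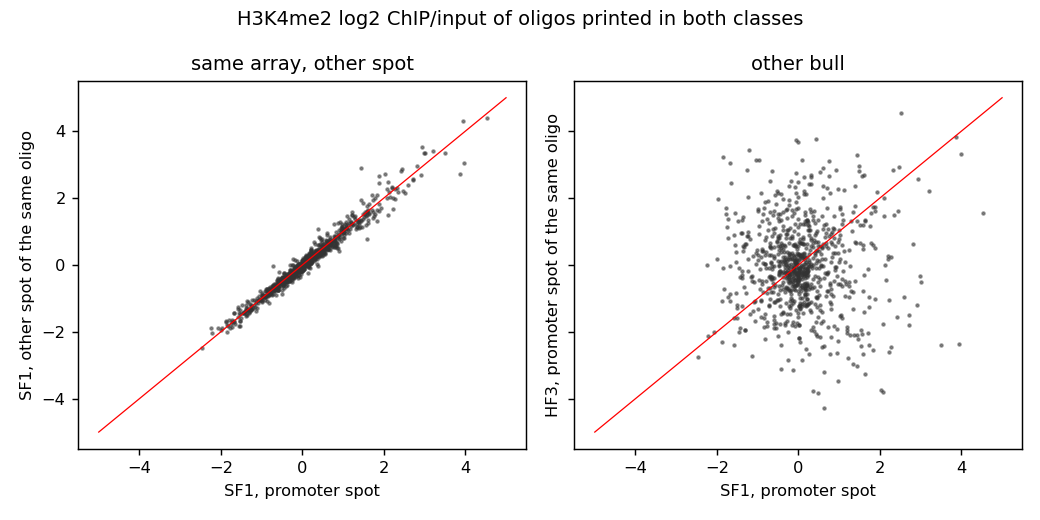
Log2 ChIP over input for H3K4me2 of the oligos printed in the promoter class and again in another class, each point 1 oligo. In the left panel the promoter spot of SF1 (x axis) is set against the other spot on the same array (y axis, r = 0.983), and in the right panel against the promoter spot of HF3, and the red line marks equal values.

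Values also ran together along the DNA over short distances. Promoter probes starting less than 60 bases apart, which overlap, correlated within an array at a median r of 0.63 over the 12 arrays (range 0.41 to 0.76, 1050 pairs). The median was 0.48 at 60 to 120 bases, 0.24 at 120 to 200, 0.14 at 200 to 300 and 0.07 at 300 to 500 bases. Between 2000 and 5000 bases it was 0.00 (range -0.02 to 0.06, 2966 pairs). Outside islands the first 2 steps gave 0.70 and 0.51. Probes that share letters or lie next to each other thus gave like values, and promoter probes farther apart than about 500 bases did not. Pairs were formed by distance alone and not by gene. By the listed positions the median region spanned 1890 bases, and 196 of the 2612 regions (7.5%) spanned more than 10000 bases.

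**Figure D4:**
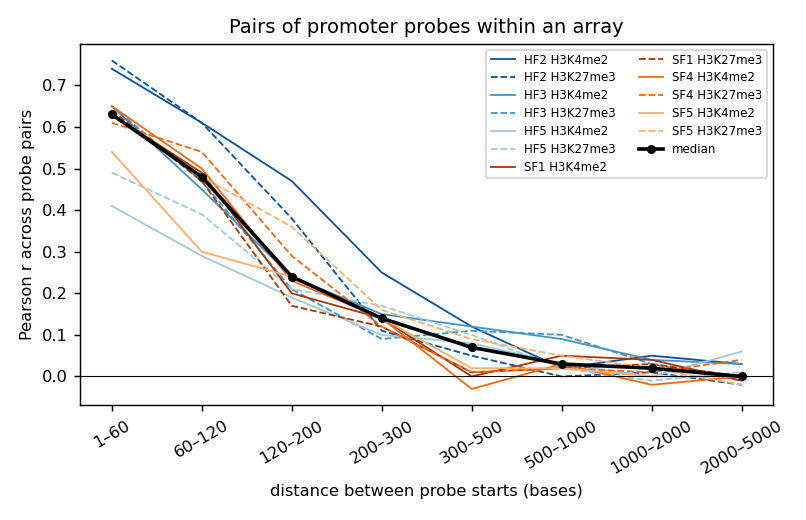
Pearson correlation across pairs of promoter probes within an array (y axis) by the distance between their starts in bases (x axis), 1 thin line per array and the median as a thick black line. The median falls from 0.63 for overlapping probes to 0.00 between 2000 and 5000 bases.

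The 2 arrays of one bull resembled each other more than arrays of different bulls did, except in SF5. Across 13403 promoter probes, H3K4me2 and H3K27me3 correlated within a bull at 0.64 in HF2, 0.79 in HF3, 0.45 in HF5, 0.87, 0.38 and 0.21 in SF1, SF4 and SF5. Between different bulls the 60 pairs of arrays ranged from -0.16 to 0.31 with a median of 0.01. The H3K4me2 arrays of HF5 and SF5 gave the 0.31, above the 0.21 within SF5. HF5 and SF1, the only bulls whose arrays shared a slide, correlated at -0.09 to -0.06. The 2 arrays of a bull used the same input DNA, whose signals correlated at 0.98 to 0.99, and lay on the same slide, so bull, input and slide cannot be told apart in this likeness. With the mean input of all bulls as denominator the within-bull values were 0.45, 0.17, 0.39, 0.44, 0.15 and 0.06, and those between bulls ranged from -0.12 to 0.37 with a median of 0.12.

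A gene's promoter region and its CpG island region were compared where both existed. Over 1633 genes the values of the 2 regions correlated at a mean r of 0.45 ± 0.04 over the 12 arrays (range 0.37 to 0.51). Where at least 1 promoter probe overlapped an island interval (1178 genes) the mean was 0.66 ± 0.02. In the 384 genes whose promoter probes all lay outside islands it was -0.01 ± 0.05 (range -0.12 to 0.07). The likeness of the 2 classes was thus found where they cover the same DNA, in part through the same oligos printed in both classes. Where all promoter probes lay outside islands, the 2 regions of a gene went separately on every array. Whether this follows from distance or from CpG content was not tested. Genes are not independent replicates, and these correlations describe single arrays.

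The first comparison asked which promoter regions differ in H3K4me2 between high-fertile and subfertile bulls. None of the 2612 reached an adjusted p of 0.05 with limma and Benjamini-Hochberg adjustment over all 8790 regions, of which 0% were called, and the lowest adjusted p was 0.999. At an unadjusted p under 0.05 stood 76 promoter regions (2.91%), 41 higher and 35 lower in high-fertile bulls, beside 3.14% of all regions. The values of the 2 groups did not overlap in 179 promoter regions, 92 higher and 87 lower, beside 7.21% of all regions. The median difference was -0.02, with 1275 regions above 0 beside 48.7% of all regions, and the 95% confidence interval of the median region reached 1.34 log2 units to either side. With within-array loess the 41 and 35 became 38 higher and 50 lower, without HF3 23 and 71, and without HF5 75 and 18, so the balance of directions rested on single bulls. With slide as a random block on all 12 arrays 245 regions had an unadjusted p under 0.05 and none an adjusted one (lowest 0.492). On the shared slide, HF5 minus SF1 had a median of -0.35 over promoter regions.

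Of the 8 named regions higher in high-fertile bulls for H3K4me2, RNF121 had the smallest unadjusted p. RNF121, a RING finger protein of the endoplasmic reticulum and Golgi membranes, had 0.77, 1.09 and 0.65 in HF2, HF3 and HF5 against -1.41, -0.37 and -0.44 in SF1, SF4 and SF5. All high-fertile values were above all subfertile ones, the difference was 1.58 (95% interval 0.49 to 2.67), and the adjusted p from limma was 0.999 (unadjusted 0.00974). Of its printed oligos the one without CG carried the larger gap, from 0.98 to 1.45 in high-fertile and from -1.99 to -0.33 in subfertile bulls. CEP95, a centrosomal protein, had 0.48, 1.65 and 0.31 against -0.60, -1.12 and -0.78, a difference of 1.65 (unadjusted limma p 0.0111). Only its oligo outside the island separated the groups, with 0.08, 3.39 and 0.79 against -1.27, -3.30 and -2.77. The oligo over the island, with 5 CG dinucleotides, ran from -0.18 to 0.88 in high-fertile and from 0.08 to 1.20 in subfertile bulls, and the groups overlapped. OAZ2, an antizyme that curbs polyamine synthesis, gave 0.32, 0.33 and 1.45 against -0.77, -0.61 and -1.38. RPS19, a protein of the small ribosomal subunit, gave 0.89, -0.02 and 2.19 against -0.43, -1.06 and -1.51, a difference of 2.02. The other named regions were ITGAV (an integrin alpha chain, 1.63), LMO4 (a LIM-only transcriptional cofactor, 1.98), SARDH (sarcosine dehydrogenase of mitochondria, 1.77) and WASL (an activator of actin branching, 1.63), each by its high-fertile minus subfertile difference.

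The other 8 named regions for H3K4me2 were lower in high-fertile bulls. CHAF1A, the large subunit of the chromatin assembly factor that loads new histones behind the replication fork, had -0.39, -0.30 and -0.89 in HF2, HF3 and HF5 against 0.53, 1.26 and 2.17 in SF1, SF4 and SF5. The groups did not overlap, the difference was -1.85 (95% interval -3.07 to -0.62), and limma gave an adjusted p of 0.999 (unadjusted 0.00784, the lowest among promoter regions). Its 2 oligos lie side by side over an island, yet the groups overlapped on the first, from -0.21 to 0.07 against -0.13 to 0.53. The second oligo gave -0.85, -0.46 and -1.56 against 1.18, 2.16 and 3.80. TTC29, a tetratricopeptide protein of the sperm flagellum, had -0.65, -0.33 and -0.69 against 1.14, 0.52 and 0.93, a difference of -1.42 (unadjusted limma p 0.0106). Its 3 oligos are spread over 166785 bases, and the third, printed last, ran from -0.22 to 0.05 against 0.35 to 0.65. The groups were apart on the first oligo too. On the second they overlapped, with -1.26, -0.26 and -1.38 against 2.39, -0.29 and 2.21. DNAJB9, a co-chaperone of the endoplasmic reticulum, gave -1.24, -0.29 and -1.23 against 0.98, 0.75 and 0.22, a difference of -1.57. SERP1, which protects membrane proteins of the same compartment under stress, gave -0.38, -1.92 and -0.26 against 1.36, 0.59 and 0.63, a difference of -1.71. TULP2, a tubby-like protein made in testis, differed by -1.63, MYT1, a zinc finger factor of the nervous system, by -1.96, HSD3B1, a hydroxysteroid dehydrogenase of steroid synthesis, by -1.49, and UBL3, a ubiquitin-like membrane protein, by -1.36. The groups did not overlap in any of the 16 named regions, as the rule that named them required.

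The same comparison for H3K27me3 again called none of the 2612 promoter regions, with 0% of all regions called and a lowest adjusted limma p of 1.000. At an unadjusted p under 0.05 stood 112 (4.29%), 55 higher and 57 lower in high-fertile bulls, beside 4.08% of all regions. Groups did not overlap in 201 promoter regions, 88 higher and 113 lower, beside 8.61% of all regions. The median difference was -0.07, with 1175 regions above 0 and 1437 below beside 50.8% of all regions above 0, and the confidence interval of the median region reached 1.24 to either side. With arrays centred on promoter probes the 55 and 57 became 71 higher and 43 lower, without HF3 28 and 134, and without HF5 72 and 37. With slide as a random block the count was 297, with a lowest adjusted p of 0.189, and on the shared slide HF5 minus SF1 had a median of -0.35.

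For H3K27me3, 8 named regions were higher in high-fertile bulls. ZYX, the focal adhesion protein zyxin, had 0.28, 1.64 and 0.13 in HF2, HF3 and HF5 against -1.42, -1.66 and -2.42 in SF1, SF4 and SF5. The difference was 2.51 (95% interval 1.29 to 3.74) with an adjusted limma p of 1 (unadjusted 0.00144), and neither printed oligo holds a CG. On the second oligo the groups stood at 1.04, 2.03 and 0.78 against -1.82, -2.38 and -3.30, and on the first they stood at -0.48, 1.24 and -0.52 against -1.02, -0.94 and -1.54. ITGB5, an integrin beta chain, had 1.44, 1.44 and 1.16 against -0.39, -1.71 and -0.18, a difference of 2.10 (unadjusted limma p 0.00269). Its 2 oligos overlap and share part of their letters, and they still differed, since the groups overlapped on the first (-0.06 to 1.43 against -0.58 to 0.29) and were apart on the second (1.45 to 2.39 against -2.83 to -0.52). TCTEX1D1, a dynein light chain relative, gave 0.79, 0.81 and 0.83 against -1.18, -0.54 and -0.71 and the high-fertile bulls lay close together. HLTF, a helicase-like factor that remodels stalled replication forks, gave 0.66, 0.75 and 1.11 against -0.97, -1.25 and -0.40, and TONSL, which reads new histones at such forks, 0.70, 0.85 and 1.35 against -0.97, -1.28 and -0.25. The differences of the others were 2.00 for NINJ2, an adhesion molecule of nerves, 2.07 for FCHO2, a protein of clathrin-coated pits, and 1.86 for ZC3H10, a zinc finger protein that binds RNA.

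The other 8 named regions for H3K27me3 were lower in high-fertile bulls. STK3, a kinase of the Hippo pathway that restrains growth, had -1.27, -1.47 and -1.53 in HF2, HF3 and HF5 against 0.28, 0.13 and 0.12 in SF1, SF4 and SF5. The difference was -1.60 (95% interval -2.44 to -0.75), and limma gave an adjusted p of 1 (unadjusted 0.00234). Both groups were tight in this mean of 2 oligos but not on the single oligos. The first oligo gave -1.15, -2.46 and -2.38 against 0.50, 1.22 and -0.83. On the second the groups overlapped, with -1.38, -0.48 and -0.69 against 0.05, -0.96 and 1.06. The H3K4me2 values of the STK3 region were below 0 in all 6 bulls, from -0.94 to -0.34. EIF3D, a cap-binding subunit of a translation initiation factor, had -0.66, -0.36 and -1.05 against 0.88, 0.88 and 1.42, a difference of -1.75 (unadjusted limma p 0.00246). All 4 of its oligos lie over an island, and the 3 printed ones hold 4 to 6 CG dinucleotides each. On the first of them high-fertile bulls ran from -1.05 to -0.17 and subfertile bulls from 1.13 to 2.62. FHIT, a dinucleoside hydrolase encoded across a fragile site, gave -0.83, 0.33 and -1.60 against 1.40, 1.59 and 1.76, the largest of these differences at -2.28. DNAJB9, already named for H3K4me2, gave -1.22, -0.05 and -0.70 against 0.81, 0.95 and 1.07, from arrays with the same inputs. The rest were ZC3H15, a zinc finger protein (-1.84), TATDN1, a deoxyribonuclease (-1.82), SERPINI1, the serine protease inhibitor neuroserpin (-1.46), and GPR139, a receptor of the brain (-1.47). Besides DNAJB9, RPS19 (1.19), WASL (1.97) and SERP1 (-1.13), named for H3K4me2, also had groups without overlap for H3K27me3. NINJ2 (1.54), ZC3H15 (-0.73) and TATDN1 (-1.03), named for H3K27me3, had the same for H3K4me2. Each kept its direction. In the remaining named regions the groups overlapped for the other mark.

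**Figure D5:**
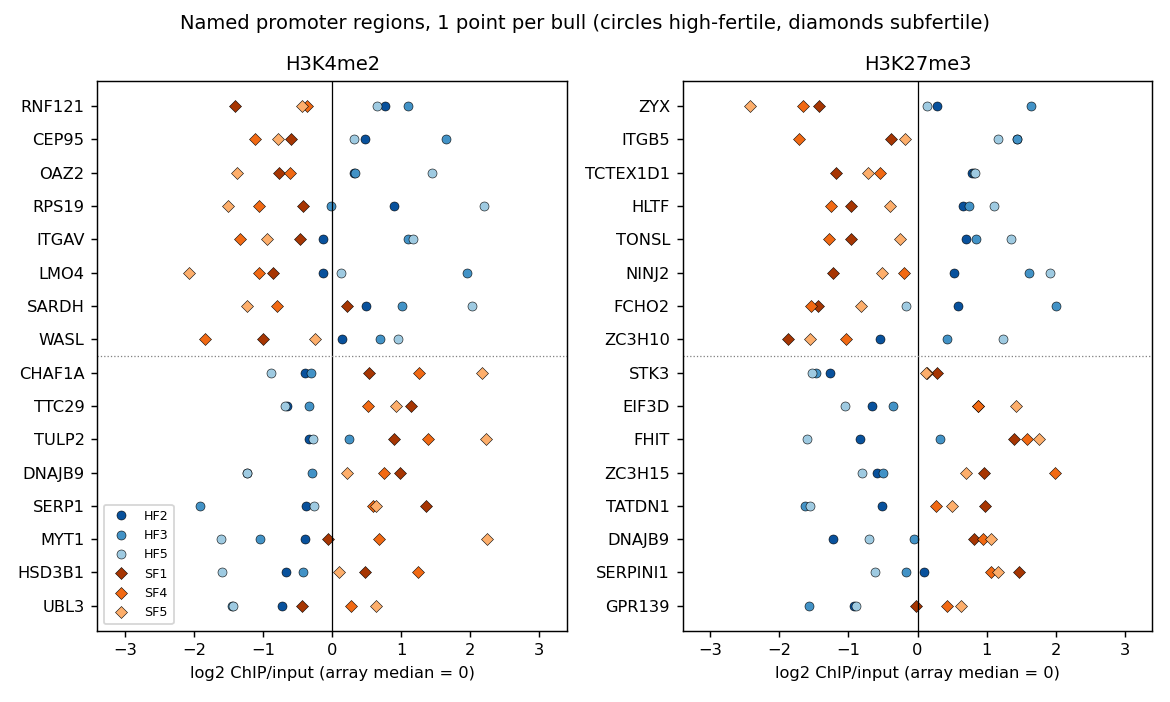
Log2 ChIP over input (x axis, array median at 0) of the 16 promoter regions named for each mark (rows), with 1 point per bull, circles for high-fertile and diamonds for subfertile bulls. The dotted line parts regions higher in high-fertile bulls (top) from lower ones, and points of the 2 groups do not overlap in any row, which is how the regions were chosen.

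Tested one probe at a time, 13302 promoter probes with a value on all 12 arrays gave no call for either mark, beside 0% of 175796 probes of all classes. For H3K4me2, 407 had an unadjusted limma p under 0.05 (3.06%), 224 higher and 183 lower in high-fertile bulls, beside 3.01% of all probes. For H3K27me3 there were 658 (4.95%), 269 higher and 389 lower, beside 4.31% of all probes. Named probes differed by larger amounts than regions. A probe of NPY2R, a receptor for the appetite signal neuropeptide Y, had 0.29, 1.99 and 2.56 for H3K4me2 in high-fertile and -2.12, -3.15 and -1.91 in subfertile bulls, a difference of 4.01 (adjusted limma p 1, unadjusted 0.000657). PPP1R16B, a phosphatase subunit of endothelium, gave 2.52, ZNF521, a zinc finger factor of blood stem cells, 3.02, and BAG2, a co-chaperone, 3.38. The 4 lower probes of smallest p were those of ERGIC1 of the secretory pathway (-3.06), ID2, an inhibitor of helix-loop-helix factors (-3.57), TATDN1 (-2.49) and a window probe of CDC26, a subunit of the anaphase-promoting complex (-3.87). For H3K27me3 a probe of GMDS, the enzyme that starts GDP-fucose synthesis, had -0.84, -2.22 and -2.41 against 2.96, 1.20 and 2.92, a difference of -4.18 (adjusted limma p 1, unadjusted 0.000477). DHX38, a splicing helicase, differed by -4.11, FBXW2, an F-box protein, by -3.80, and FHIT by -3.74. C29H11orf10 (3.99), ZYX (3.79), the macoilin gene TMEM57 (3.05) and CSRNP3, a nuclear factor (2.69), were higher. Of the 16 named probes 2 were of window design and 2 lay over islands.

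Whether the fertility difference itself differed between marks was asked with an interaction term over all 12 arrays. No promoter region was called, beside 0% of all regions, and 15 (0.574%) had an unadjusted limma p under 0.05, beside 0.592% of all regions. With bull as a replicate block 105 had one, and none an adjusted p under 0.05 (lowest 0.962). The 15 became 31 without HF3, 30 without SF1, 23 without HF2 and 8 without SF5.

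The marks were then compared with each other over all bulls, again without pairing the 2 arrays of a bull in the main fit. No promoter region was called, beside 0% of all regions, and 19 (0.727%) had an unadjusted limma p under 0.05, 5 with more H3K4me2 and 14 with more H3K27me3, beside 0.569% of all regions. The sign was the same in all 6 bulls in 103 promoter regions, 45 and 58, beside 3.36% of all regions. ADCY5, an adenylyl cyclase that makes cyclic AMP, had H3K4me2 values of 0.63, 1.37, 0.97, 2.68, 1.27 and 2.11 and H3K27me3 values of -0.47, 0.77, -1.60, 2.10, 0.71 and 0.60 in HF2, HF3, HF5, SF1, SF4 and SF5. H3K4me2 was the higher in every bull, by a mean of 1.16 (95% interval 0.19 to 2.12, adjusted limma p 1, unadjusted 0.0227). SLAIN2, which promotes microtubule growth, had the reverse, with H3K4me2 values of 0.59, 1.82, 0.46, -0.06, -0.02 and -0.98 and H3K27me3 values of 1.10, 2.78, 1.78, 0.62, 0.57 and 2.15. Its mean difference was -1.20 (95% interval -2.11 to -0.28, adjusted limma p 1, unadjusted 0.0146). ERO1L, an oxidase of the endoplasmic reticulum, gave -1.04, CHD4, the remodelling ATPase of the NuRD complex, -1.14, and TMEM108 -1.16 (unadjusted limma p 0.0154, 0.0484 and 0.0496). The 2 probes of ERO1L spanned 51851 bases and the 4 probes of TMEM108 440154 bases, so these means join distant DNA. The other named regions had one sign in all 6 bulls but did not reach an unadjusted p of 0.05 in this unpaired fit. Those with the higher H3K4me2 value, at unadjusted limma p 0.0718 to 0.131, were UBE2L3, a ubiquitin-conjugating enzyme (0.87), DAB2, an endocytic adaptor (0.83), ADAMTS8, a secreted metalloprotease (0.48), ZNF688 (0.58), ACSL3, which activates fatty acids (0.80), GPANK1 (0.72) and NUDT3, a phosphohydrolase (0.88, window design). Those with the higher H3K27me3 value, at unadjusted limma p 0.0555 to 0.0717, were EXPI, a secreted protease inhibitor (-0.91), CTPS, which makes CTP (-0.62), LYG2, a goose-type lysozyme (-0.70), and SLC25A36, a mitochondrial nucleotide carrier (-1.21). The split of 5 and 14 was 2 and 25 after within-array loess, 3 and 32 in the deposited value table and 7 and 9 with arrays centred on promoter probes. With bull as a replicate block, 120 regions had an unadjusted p under 0.05 and none an adjusted one (lowest 0.940). The 19 became 36 without HF3, 33 without SF1, 8 without HF5 and 4 without SF5.

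Levels over all bulls were set against the array median. For H3K4me2 no promoter region was called, beside 0% of all regions, and 134 (5.13%) had an unadjusted limma p under 0.05, 31 above and 103 below the median, beside 4.52% of all regions. The share above was 1.19% of promoter regions beside 1.72% of all regions, and the share below 3.94% beside 2.8%. ADCY5 had the smallest p above the median, with the 6 H3K4me2 values given above, the lowest 0.63 in HF2, and a mean of 1.51 ± 0.76 (SD, n = 6, adjusted limma p 0.944, unadjusted 0.000293). RPTOR, a scaffold of the mTOR complex, followed with 0.70, 1.40, 0.99, 0.92, 0.29 and 0.67, then GEMIN7, an assembly factor of spliceosomal particles (mean 0.95), PTH, parathyroid hormone (0.76), VIM, vimentin of mesenchymal cells (0.91), C15H11orf71 (0.74), SUGP1, a splicing factor (0.72), and C10H15orf57 (0.79). EIF1B, a translation initiation factor, had the smallest p below the median, with -1.05, -0.78, -0.74, -0.82, -2.00 and -1.86, a mean of -1.21 ± 0.57 (SD, n = 6, adjusted limma p 0.944, unadjusted 0.000888). Below the median in every bull were also BHLHE41, a repressor of the circadian clock (-1.16), HBP1, an HMG-box repressor (-1.23), CWC27 of the spliceosome (-1.01), GNB2, a G protein beta subunit (-1.35), NUDT21, which guides polyadenylation (-0.91), LDHC, the lactate dehydrogenase of sperm (-1.24), and DYNLL1, a dynein light chain (-1.04). The split of 31 and 103 became 27 and 254 with normexp background correction and 42 and 80 with arrays centred on promoter probes. The count of 134 became 218 without HF3 and 83 without SF5.

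For H3K27me3 levels no promoter region was called either, beside 0% of all regions, and 138 (5.28%) had an unadjusted limma p under 0.05, 56 above and 82 below, beside 5.02% of all regions. SLAIN2 had the smallest p above the median, with a mean of 1.50 ± 0.89 (SD, n = 6, adjusted limma p 0.943, unadjusted 0.00113), followed by CHD4 (1.27), TRA2B, a splicing regulator (0.97), CEP57, a centrosomal protein (0.87), VIM (0.66), HERC4, a ubiquitin ligase (0.68), and ERO1L (0.69). VIM was above the median for both marks in all 6 bulls. Below it stood AQP11, an aquaporin (-0.94), NUDT21 (-0.94), LDHC (-1.04), SLCO2B1, an organic anion carrier (-0.81), CD200R1L, a relative of an immune receptor (-1.49), SLC2A1, the basal glucose transporter (-1.17), MGC133804 (-0.94) and INTS7 of the Integrator complex (-0.86). NUDT21 and LDHC were thus below the median of their array in every bull for both marks. The split of 56 and 82 became 72 and 48 after within-array loess, 79 and 52 in the deposited value table and 33 and 166 with normexp.

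Gene lists for sperm function were thinly covered by promoter regions. Of 34 nuclear protein and spermatid genes 5 had a region, 2 higher and 3 lower in high-fertile bulls for H3K4me2 and 3 and 2 for H3K27me3, with medians of -0.32 and 0.05 beside -0.02 and -0.07 over all promoter regions. None of the 5 had an unadjusted p under 0.05. TNP1, the transition protein that bridges histones and protamines, had H3K4me2 values of -0.64, -0.46 and 0.26 against 0.13, 0.37 and 0.09, and the groups overlapped (difference -0.48, unadjusted limma p 0.324). ACTL7B and ACTL7A, actin-like proteins of spermatids with 35 and 34 window probes on chromosome 8, differed by -0.32 and 0.06 for H3K4me2, and CABYR, a calcium-binding protein of the flagellum, by -0.39.

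Of 39 meiosis and spermatogonia genes 6 had a region, 2 higher and 4 lower for H3K4me2 (median -0.09) and 3 and 3 for H3K27me3 (median 0.19), none with an unadjusted p under 0.05. MSH5, a crossover protein, had the largest H3K4me2 difference of those named at -1.55, with overlapping groups (-1.05, 0.40 and -1.64 against 0.56, -0.77 and 2.56). HORMAD1 of the meiotic chromosome axis differed by -0.64 and the recombinase DMC1 by 0.65. Among 37 flagellum genes 6 had a region, 5 higher and 1 lower for H3K4me2 (median 0.57) and 4 and 2 for H3K27me3 (median 0.03), again with no unadjusted p under 0.05. RSPH1 of the radial spoke differed by 0.66 and the anchoring protein AKAP3 by 0.75 for H3K4me2, with overlapping groups in both, and LDHC by -0.35. Among 36 acrosome and fertilization genes 7 had a region, 4 higher and 3 lower for H3K4me2 (median 0.01) and 0 and 7 for H3K27me3 (median -0.33), none with an unadjusted p under 0.05. ZPBP, which binds the zona pellucida, was the 1 region of 7 without overlap for H3K4me2, beside 7.21% of all regions, with 0.13, 0.62 and 0.63 against -0.38, 0.09 and -0.18. PRSS37, a protease relative needed for sperm migration, differed by -1.09 and LYZL6, a sperm lysozyme, by 0.01 for H3K4me2.

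Markers of other cells of semen or testis were read with the limit that a ChIP ratio at a promoter gives no expression, so these values do not test the purity of the sperm. Of 49 leukocyte markers and immune receptors 4 had a region, 3 higher and 1 lower for H3K4me2 and 2 and 2 for H3K27me3, none with an unadjusted p under 0.05. Their mean level for H3K4me2 ran from -0.78 to 0.16 over high-fertile and from -0.80 to -0.19 over subfertile bulls. TLR5, a receptor for flagellin, differed by 0.85, its relative TLR6 by 0.52 and CD48, a leukocyte surface protein, by 0.34 for H3K4me2. KRT8, a keratin of simple epithelia and the 1 epithelial marker of 12 with a region, differed by -0.13 for H3K4me2 and -0.10 for H3K27me3. Of 19 somatic testis markers 6 had a region, 3 higher and 3 lower for H3K4me2 and 2 and 4 for H3K27me3, with 1 unadjusted p under 0.05 for each mark, beside 3.14% and 4.08% of all regions. These were HSD3B1, described above, and NR5A1, the nuclear receptor of steroid-making cells, whose H3K27me3 values were -1.61, -0.49 and -1.33 against 0.14, -0.10 and -0.39 (difference -1.03, unadjusted limma p 0.0483). ACTA2, the smooth muscle actin of myoid cells, differed by 0.40 for H3K4me2 and -0.73 for H3K27me3.

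The other lists held tissue-restricted genes, the usual owners of CpG-poor promoters. Of 56 cytokine and interferon genes 11 had a region, 5 higher and 6 lower in high-fertile bulls for H3K4me2 and 6 and 5 for H3K27me3. For H3K27me3, 1 of them had an unadjusted p under 0.05, beside 4.08% of all regions. This was IL4, a cytokine of helper T cells (difference -1.22, unadjusted limma p 0.0343). Its H3K27me3 values were -0.88, -1.65 and -0.98 against 0.72, -0.63 and 0.06. It was the 1 region of 11 without overlap, beside 8.61% of all regions. Of 49 liver plasma protein genes 9 had a region, 5 higher and 4 lower for either mark. AFP, the fetal plasma protein, had H3K27me3 values of 0.05, -0.51 and -0.14 against 0.48, 0.91 and 0.97 (difference -0.98, unadjusted limma p 0.0371). F11, a clotting factor, had -0.21, 1.54 and 0.53 against -0.48, -1.07 and -0.41 (difference 1.27, unadjusted limma p 0.0415). The groups did not overlap in either gene, and the directions were opposite. These were the only 2 of the 9 regions under an unadjusted p of 0.05, beside 4.08% of all regions. They were also the only 2 without overlap, beside 8.61% of all regions.

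Of 38 keratin and epidermis genes 6 had a region, 2 higher and 4 lower for H3K4me2 and 3 and 3 for H3K27me3. TGM3, which cross-links the horny layer of skin, gave H3K27me3 values of 0.46, 0.61 and 1.04 against -0.27, -1.09 and -0.01 (difference 1.16, unadjusted limma p 0.0302). It was the 1 region of 6 under 0.05, beside 4.08% of all regions. KRT4, a keratin of mucosal epithelium, differed by 0.82 for H3K4me2 without overlap of the groups. It was 1 of 2 such regions among the 6, beside 7.21% of all regions. CSN2, the beta casein of milk, was the 1 region of 10 milk protein genes and differed by 0.65 for H3K27me3, with 0.03, 0.25 and 0.11 against -0.25, -0.86 and -0.46. ELF5, a factor of trophoblast and mammary gland, had H3K4me2 values of -0.09, 1.08 and 0.29 against -0.48, -0.60 and -0.75 (difference 1.04, unadjusted limma p 0.0581), and it was 1 of 2 regions from 20 trophoblast genes. POU5F1, the pluripotency factor and the 1 region from 30 oocyte and embryo genes, ran from -1.12 to 1.66 in high-fertile and from -0.79 to 0.75 in subfertile bulls for H3K4me2.

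The remaining tissue lists gave no unadjusted p under 0.05 for either mark. Counts higher and lower for H3K4me2 were 2 and 3 among 5 muscle regions, 1 and 2 among 3 hormone regions, 1 and 1 among 2 globin regions, 0 and 2 among 2 antimicrobial peptide regions, 1 and 3 among 4 digestive regions and 3 and 3 among 6 detoxification regions. For H3K27me3 they were 2 and 3, 2 and 1, 1 and 1, 0 and 2, 3 and 1, and 2 and 4. TAS2R42, a bitter taste receptor and the 1 sensory receptor region, differed by 0.98 for H3K4me2 with overlapping groups. PNLIPRP2, a pancreatic lipase relative, had 0.02, -0.22 and -1.18 against 0.23, 0.25 and 2.21 without overlap (difference -1.36, unadjusted limma p 0.0693). It was the 1 digestive region of 4 without overlap, beside 7.21% of all regions.

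Developmental and housekeeping genes usually have CpG-rich promoters. Of 69 HOX and developmental transcription factor genes 23 had a region, 9 higher and 14 lower for H3K4me2 and 8 and 15 for H3K27me3, with medians of -0.10 and -0.06 and no unadjusted p under 0.05. TBX20, a factor of heart development with 10 probes, had H3K4me2 values of -0.69, -0.88 and -0.68 against -0.39, 0.07 and 1.16, which did not overlap (difference -1.03, unadjusted limma p 0.0793). TBX5, a factor of heart and forelimb, differed by 0.80 for H3K27me3, also without overlap. Regions without overlap numbered 2 of 23 for H3K4me2 and 1 for H3K27me3, beside 7.21% and 8.61% of all regions. HOXA9, of the posterior HOX genes, was above the array median for both marks in every bull, from 0.02 to 0.78 for H3K4me2 in high-fertile bulls, except for H3K27me3 in HF2 at -0.04. Of 78 ribosomal protein genes 16 had a region, 6 higher and 10 lower for H3K4me2 and 8 and 8 for H3K27me3, with 1 unadjusted p under 0.05 for each mark, beside 3.14% and 4.08% of all regions. These were RPS19, described above, and RPL23A of the large subunit, whose H3K27me3 values were 0.17, 0.68 and 1.94 against -0.19, -1.35 and -0.93 (difference 1.75, unadjusted limma p 0.0144). All 5 regions of 24 other housekeeping genes were lower in high-fertile bulls for H3K4me2, with a median of -0.22 and no unadjusted p under 0.05, and 2 were higher and 3 lower for H3K27me3. PPIA, the abundant folding enzyme cyclophilin A, was below the array median for both marks in every bull.

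The number of probes behind a promoter went with how far the bulls spread. A mean over more probes spreads less by construction. The densest regions named below held window probes only, so probe number and design were not separated. The median SD over the 6 bulls for H3K4me2 was 0.86 in the 1420 regions of 2 probes, 0.72 in 932 regions of 3 to 5, 0.51 in 191 regions of 6 to 19 and 0.32 in 69 regions of 20 or more. For H3K27me3 it was 0.79, 0.69, 0.49 and 0.29. The largest H3K4me2 difference of the fertility groups, in either direction, was 2.45 log2 units with 2 probes and 0.73 with 20 or more. The densest was CAST, the gene of the protease inhibitor calpastatin, with 74 window probes and H3K4me2 values of 0.17, 0.38 and -0.14 against 0.25, -0.28 and 0.10. ARVCF, a catenin of cell junctions with 49 window probes and 68.4% G and C, had -0.01, -0.08 and 0.78 against 0.02, 0.00 and 0.89, so HF5 and SF5 stood apart from the other bulls in both fertility groups. C8G, a complement component with 40 window probes and 68.9% G and C, showed the same with 1.19 in HF5 and 1.05 in SF5 against -0.23 to 0.02 in the other 4.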

How the data were processed

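H3K4me2 and H3K27me3 were measured in sperm of 6 bulls on 12 two-colour arrays. Probe positions are on the cattle build HGSC Btau_3.1, per the file headers. Per the labels, precipitated and input DNA were linker-ligated and amplified by PCR, which could change the balance of AT-rich and GC-rich fragments. Per the submitters' processing notes the arrays were read with Agilent Feature Extraction 10.7, version 10.7.3.1 per the file headers. The deposited intensity columns are background-subtracted and dye-normalized signals of both colours, per the file headers. The deposited flags are a score per spot and were used only to set outlier spots missing and to find spots well above background. The deposited log10 ratio, turned into log2, was within 0.01 of the log2 ratio computed here at 98.49% to 99.84% of promoter probes per array. In the deposited value table each array has a log2 ratio with ChIP as numerator. Over promoter probes it correlated with the ratio at 0.715 to 0.993 and with the ratio after within-array loess at 0.97 to 0.994. Its direction is thus settled, while the method of its normalization is not stated. Its slope on the ratio ran from 0.52 to 1.04 per array, lowest for H3K4me2 in SF5 (0.52) and HF5 (0.69). Its scale against the ratio was therefore not the same on every array. Its column medians over all probes ran from -0.13 to 0.10, so it is not centred exactly on 0. In the order HF2, HF3, HF5, SF1, SF4 and SF5 they were 0.00, 0.10, -0.11, 0.04, -0.01 and -0.13 for H3K4me2 and -0.01, 0.09, -0.07, 0.03, -0.01 and -0.02 for H3K27me3.

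The log2 ratio was centred on the median of all non-control probes. A probe was kept where its input signal stood well above background on 6 or more of the 12 arrays, which kept 13403 of 13422 promoter probes, and 0 to 25 promoter spots per array were missing as outliers. Regions and probes were fitted with limma 3.58.1 (lmFit and eBayes, two-sided, Benjamini-Hochberg over all classes) in R 4.3.3, and summaries were made with Python 3.11.15. The fit was also run on simulated independent arrays. The planted changes were larger than any fertility difference of a promoter region here, so recovery of smaller changes was not examined. With 3 bulls a group, 1 array per bull and mark, no dye swap and no array of the same DNA made again, the number of arrays limits the precision. The 2 arrays of a bull come from the same animal, so bull is a true pairing, and their deviations from the group means correlated at 0.25 to 0.75. The main fits of the interaction and of the marks did not use this pairing.

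Regions were named by smallest unadjusted p among those on 1 chromosome with groups that did not overlap, 8 in each direction, since none passed an adjusted p of 0.05. For the mark comparison and the levels one sign in all 6 bulls was required instead. Probes were named in the same way, 4 in each direction, and in each of 23 gene lists (816 symbols) the 2 members of smallest p per mark. The probe class and the lists were chosen with earlier results of these data known. The densest regions were chosen by their number of probes, and not all list members named by the rule are described. One region that the rule for levels named is not reported here. Symbols were matched to the buffalo RefSeq annotation by name, and its coordinates were not used. Alternatives were loess, normexp, the deposited table, other centring and filters, slide, bull, probes per region and G and C content. Splits by overlap with islands, and leaving out bulls within them, were chosen after seeing the data.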

Additional observations from a re-analysis of the deposited data

Results flagged for a closer look

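The VIM promoter region stood out for 1 bull. Its H3K4me2 level in HF3 was 2.27, against 0.20 to 0.87 in the other 5 bulls, and the gap to the nearest bull was 0.68 of the whole range, above Dixon's critical value for 6 samples. Of 40 groups of 6 arrays examined, the class medians and the named levels, 1 had such a value. The named levels had been picked from these arrays by small p and the same sign in all 6 bulls. The rate of such values by chance in groups picked this way was not examined.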

How the results depend on the processing

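No promoter region or probe reached an adjusted p of 0.05 in limma under any alternative run, and the lowest was 0.189. Counts at an unadjusted p under 0.05 moved as follows. With slide as a random block on 12 arrays they were 245 (from 76) for H3K4me2 regions, 297 (from 112) for H3K27me3 regions, 1138 (from 407) and 1332 (from 658) for probes, 76 (from 15) for the interaction, 86 (from 19) for the marks and 85 (from 138) for H3K27me3 levels. The slide block could not be fitted on the 6 arrays of a mark, which leave no degrees of freedom for it. With at least 3 probes a region, which tests fewer regions, the counts were 28, 47, 4, 7, 51 and 56 for H3K4me2, H3K27me3, interaction, marks and the levels of both marks. With at least 1 probe, which tests more, they were 214, 315, 40, 47, 345 and 395. Without probes over islands H3K4me2 regions numbered 47 of 1653. Without HF5 and SF5, H3K4me2 probes numbered 696 and the interaction 7. Normexp gave 31 for the marks and 281 for H3K4me2 levels, and the deposited table gave 35 for the marks. Where no construction is named, the cause was not tested.

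With bull as a replicate block, the interaction count was 105 and the mark count 120, and the pairing changed no call at an adjusted p.

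Leaving out 1 bull at a time gave 75 to 94 for H3K4me2 regions, 96 to 162 for H3K27me3 regions, 399 to 564 and 591 to 978 for probes, 8 to 31 for the interaction, 4 to 36 for the marks, and 83 to 218 and 113 to 191 for levels. The class medians against islands ran from -0.17 to 0.04 and -0.10 to 0.05 in high-fertile bulls and from -0.10 to -0.02 and -0.01 to 0.09 in subfertile bulls for H3K4me2 and H3K27me3. With only the probes outside islands the subfertile H3K4me2 mean was -0.27, and leaving out 1 bull it ran from -0.39 to -0.05, the latter without SF5. The promoter and island correlation of a gene was -0.01 with no probe over an island, 0.66 with at least 1 and 0.56 with at least 3 probes a region.

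Of 2243 alternatives for 135 named regions and probes, 14 reversed the sign. These were CABYR H3K27me3 (0.24 without HF5 and SF5, 0.08 without HF5), ACTL7A H3K27me3 (-0.01 and -0.03), TLR6 H3K4me2 (-0.28 and -0.30), KRT8 H3K4me2 (0.02 with loess, 0.05 in the deposited table, 0.20 without HF5 and SF5, 0.22 without HF2, 0.34 without SF5) and KRT8 H3K27me3 (0.77 without HF5 and SF5, 0.19 without HF5, 0.48 without SF5). Leaving out 1 bull at a time they ran from -1.47 to 0.08 for CABYR, -0.03 to 0.26 for ACTL7A, -0.30 to 0.94 for TLR6, -0.42 to 0.34 for KRT8 H3K4me2 and -0.56 to 0.48 for KRT8 H3K27me3. The cause was not tested. Promoter probes outside islands were the dimmest, so ratios there, above all on the H3K4me2 array of HF5, rest on less signal over background.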

Other observations

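MicroRNA genes had 35 promoter regions. For H3K4me2, 17 were higher in high-fertile bulls, the groups did not overlap in 3 (beside 7.21% of all regions), and the median difference was -0.04 (range -1.34 to 1.34). For H3K27me3, 19 were higher, the groups did not overlap in 2 (beside 8.61% of all regions), and the median was 0.03 (range -0.95 to 1.54). No region passed an adjusted p of 0.05 in limma, and 1 per mark had an unadjusted p under 0.05, beside 3.14% and 4.08% of all regions. The region of MIR181A-2 had H3K4me2 values of -0.66, -0.16 and -1.05 in high-fertile and -0.03, 1.06 and 1.12 in subfertile bulls, a difference of -1.34 (unadjusted limma p 0.0294). The region of MIR425, with 10 probes, had H3K27me3 values of -0.11, 1.96 and 1.05 against -0.90, -0.00 and -0.81, a difference of 1.54 (unadjusted limma p 0.0301), with overlapping values in HF2 and SF4.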
